A study of Rattus norvegicus with 25 samples.

Results

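The 2 stable rat hepatoma lines that carry the same constitutively active Sar1B:H79G construct were compared with each other. Members were chosen by sample title alone: the 4 arrays of Sar1B:H79G line 1 and the 4 arrays of Sar1B:H79G line 2, 8 of the 25 arrays in the series. The study placed human SAR1 constructs in McArdle-RH7777 cells, a rat hepatoma line that makes and secretes apoB-containing lipoproteins, and measured total RNA on Affymetrix rat expression arrays. The remaining 17 arrays came from 2 lines with wild-type Sar1B (4 arrays each), 1 line with wild-type Sar1A (4 arrays) and 2 control lines (2 and 3 arrays), and here they serve only as a scale for the difference. Both Sar1B:H79G lines carried a tetracycline repressor plasmid and a second plasmid with the FLAG-tagged human mutant under a tetracycline-regulated promoter. Both were kept in blasticidin at 10 μg/ml and zeocin at 250 μg/ml, and both received tetracycline at 1 μg/ml for 24 h before harvest, so drug selection and induction were shared. Each line was grown from a colony picked singly, hence each is 1 clone, and the methods chose lines in which recombinant protein was comparable. The methods call the arrays of a line technical replicates. Every p-value below therefore measures the spread between arrays and compares clone 1 with clone 2, with 1 clone on each side.

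Sar1 proteins are small GTPases that start assembly of the COPII coat at endoplasmic reticulum (ER) exit sites. When Sar1 binds GTP it inserts into the ER membrane and recruits the Sec23/Sec24 cargo-selecting layer and then the Sec13/Sec31 cage, and GTP hydrolysis lets the coat come off. Exchange of the catalytic histidine for glycine keeps the protein in its GTP-bound form, which holds coats on the membrane and blocks ER-to-Golgi traffic. Clones derived from one stable transfection differ in where the plasmids integrated, in copy number and in whatever the founder cell already carried. The comparison asks which genes differ between clones that share the construct.

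Array medians lay between 8.096 and 8.161 on the log2 scale over the 25 arrays, and no arrays were identical. The arrays of a line are numbered in the order of deposit, and the numbers have no other meaning. Over all probe sets the Pearson correlation between arrays ranged from 0.993 to 0.9965 within line 1, from 0.9945 to 0.9977 within line 2 and from 0.9858 to 0.9932 between them. All 13 measured hepatocyte markers lay above the median probe set (8.131) in both lines, with median levels of 12.09 in line 1 and 12.15 in line 2. None of 5 endothelial markers did so, whereas 3 of 6 cholangiocyte markers did in each line, 3 and 4 of 9 fibroblast markers, and 3 and 2 of 7 macrophage and leukocyte markers. The brightest of these, Spp1 (osteopontin), is also made by hepatoma cells and differed between the lines by -0.84. The deviations of the 4 line 1 arrays from their mean fell into 2 pairs: they correlated at 0.238 for arrays 1 and 2, at 0.195 for arrays 3 and 4, and at -0.513 to -0.731 across the pairs. The β-actin 5′ minus 3′ signal, in which lower values mark shorter or degraded RNA, was -0.53 and -0.59 on line 1 arrays 1 and 2, -0.84 and -0.88 on arrays 3 and 4, and between -0.65 and -0.57 on the 4 line 2 arrays. The main results that shift with this split are given with each pair alone. By the codes in the titles the control arrays form a separate array series, and their β-actin values ran from -1.12 to -0.75, so levels set beside the control lines cross that series.

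Of 31042 probe sets tested, 43 (0.139%) differed between the Sar1B:H79G lines at an adjusted p below 0.05 and by at least 2-fold. Of these, 33 (0.106%) were higher in line 1 and 10 (0.0322%) higher in line 2. Counted by gene, with the brightest probe set of each, 30 of 14217 genes (0.211%) passed, 22 (0.155%) higher in line 1 and 8 (0.0563%) higher in line 2. Arrays of the lines did not overlap for any of the 30, beside 26.4% of all genes. The same test called 74 probe sets (0.238%) between the wild-type Sar1B lines and 16 (0.0515%) between the control lines, the latter with fewer arrays. By gene these were 53 (0.373%) and 13 (0.0914%). Of the 43 probe sets, 34 differed more between the Sar1B:H79G lines than between the Sar1B lines in a test of that difference over 16 arrays (0.11% of all). So did 25 of the 30 genes (0.176%). The gap that selected these also enters that test, so a high share passing is partly set by the selection. Over all genes, 504 (3.55%) passed it without the 2-fold minimum. Without the 2-fold minimum 5419 probe sets (17.5%) passed, 2136 (6.88%) higher in line 1 and 3283 (10.6%) higher in line 2. On that looser rule the order of the pairs turned, since 3767 (12.1%) passed for the Sar1B lines and 796 (2.56%) for the control lines. Counts of the pairs were not tested against each other. By gene the looser rule passed 3225 (22.7%). Below, a gene is called when it passed both rules, and a list member is counted as higher when it passed the adjusted p alone, for which the background over all genes was 7.77% higher in line 1 and 14.9% higher in line 2. Differences are line 2 minus line 1 on the log2 scale, with negative values higher in line 1.

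**Figure D1:**
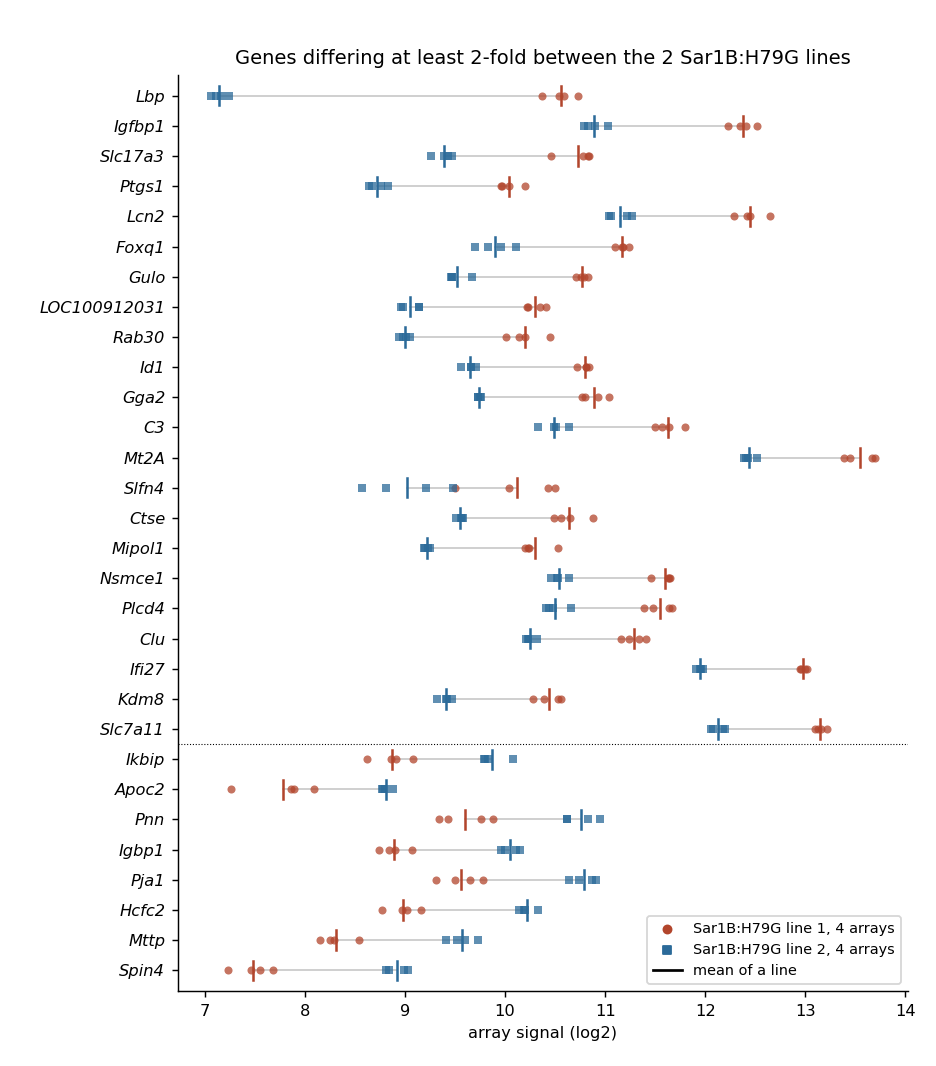
Signal of the 30 called genes on every array. Each row is a gene, the horizontal axis is the deposited log2 signal, circles are the 4 arrays of Sar1B:H79G line 1, squares the 4 arrays of line 2, and vertical ticks the line means. Lbp is the widest gap (10.56 against 7.14), and the 8 genes under the dotted line are higher in line 2.

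The widest difference by far was in Lbp, the secreted lipopolysaccharide-binding protein of the hepatic acute phase response. Its log2 signal on the line 1 arrays was 10.53, 10.73, 10.59 and 10.37, and on the line 2 arrays 7.11, 7.16, 7.24 and 7.06. Line 2 was below the median probe set and line 1 far above it, a difference of -3.41 ± 0.075 (SE; adjusted p = 1.79e-12). The line 2 level was close to the median of the endothelial markers (7.05 in line 1 and 7.14 in line 2), and without detection calls it is not shown to be above background, so the size is that of the signals. Lbp also differed between the wild-type Sar1B lines (11.52 and 9.71), was 7.92 and 7.86 in the control lines and 6.89 in the Sar1A line. The gap between the Sar1B:H79G lines was wider than that between the Sar1B lines (adjusted p = 4.34e-07). Lcn2, lipocalin 2, an iron-siderophore binding protein that rises in inflammation, gave 12.28, 12.41, 12.65 and 12.44 in line 1 and 11.22, 11.06, 11.04 and 11.27 in line 2. The difference was -1.30 ± 0.081 (adjusted p = 2.14e-07). Unlike Lbp, Lcn2 was high in both clones, since the other 5 lines lay between 7.67 and 8.41. C3, the central complement component, was 11.63 ± 0.13 (SD, n = 4 arrays) in line 1 and 10.49 ± 0.13 in line 2, a difference of -1.14. Here the wild-type clones differed at least as much (12.02 and 10.70, a difference of -1.32), and the difference between the pairs did not pass its test (adjusted p = 1).

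Further called genes higher in line 1 encode proteins of varied roles. Clu (clusterin, an extracellular chaperone) was 11.29 ± 0.11 in line 1 and 10.25 ± 0.05 in line 2, a difference of -1.04. With all probe sets of Clu averaged the difference was -0.60. Igfbp1, the liver-made insulin-like growth factor binding protein that insulin represses, was 12.40, 12.52, 12.23 and 12.35 in line 1 against 11.03, 10.90, 10.79 and 10.83 in line 2. The clones did not overlap and lay on opposite sides of the median of the other lines (11.60), with a difference of -1.49 ± 0.073 (adjusted p = 4.33e-08). The control lines also differed in Igfbp1, at 12.21 and 11.31. Ctse, the aspartic protease cathepsin E, was 10.64 ± 0.17 and 9.55 ± 0.03, a difference of -1.09. Ifi27, an interferon-induced gene, was 12.98 ± 0.03 and 11.95 ± 0.03, a difference of -1.03, but it differed by -3.27 between the wild-type Sar1B lines. A probe set shared by Kng1, Kng2l1 and Kng2 was also called (-1.61).

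Among 26 measured plasma protein and acute phase genes, 8 were higher in line 1 and 2 in line 2, with a median of -0.09 (all genes 0.00356). Hpx (hemopexin) differed by -0.61 and Itih1 by -0.45, whereas Ttr (transthyretin) was 0.51 higher in line 2. The 24 coagulation and complement genes split 7 to 5. Plg (plasminogen, -0.66), Proc, F2 and Fga were higher in line 1, and the complement proteases C1r (0.65) and C1s were higher in line 2.

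Enzymes and transporters made up a further group among the called genes. Slc17a3, an organic anion transporter, gave 10.78, 10.83, 10.84 and 10.46 in line 1 and 9.47, 9.39, 9.26 and 9.43 in line 2, a difference of -1.34. The Sar1B clones differed in it too (-0.93), and the excess over that pair did not pass its test (adjusted p = 0.155). Ptgs1, the constitutive cyclooxygenase, was 10.04, 10.20, 9.96 and 9.97 in line 1 and 8.83, 8.75, 8.64 and 8.67 in line 2, a difference of -1.32. The 5 other lines lay between 7.63 and 7.92, so Ptgs1 was raised in both clones and more in line 1. Averaging its probe sets gave -0.75. Gulo, the last enzyme of vitamin C synthesis, ran the other way with respect to the other lines: line 1 (10.79, 10.82, 10.76 and 10.71) lay within their range of 10.51 to 11.54 and line 2 (9.46, 9.47, 9.47 and 9.67) below it, a difference of -1.25. Plcd4, a phospholipase C, was 11.54 ± 0.13 and 10.50 ± 0.11 against 8.02 to 9.37 elsewhere.

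Transcriptional regulators were called in line 1 as well. Foxq1, a forkhead factor, was 11.10, 11.17, 11.24 and 11.17 in line 1 and 9.70, 9.96, 9.83 and 10.11 in line 2, a difference of -1.27, with a second probe set at -1.10. Id1, an inhibitor of basic helix-loop-helix factors and a target of bone morphogenetic protein signalling, was 10.81, 10.81, 10.84 and 10.72 in line 1 and 9.66, 9.71, 9.56 and 9.66 in line 2. Both clones were below the other 5 lines (11.75 to 12.13), and line 2 was the lower by 1.15. Rab30, a Golgi Rab GTPase, differed by -1.20 (10.20 and 8.995), and LOC100912031, which stands beside it head to head, by -1.25 (10.30 ± 0.09 against 9.05 ± 0.10). In the RefSeq annotation the start sites of these neighbours are 231 bases apart on opposite strands of chromosome 1. A dimmer Rab30 probe set differed by only -0.14 and did not pass. Slfn4 (-1.10) was called with the widest scatter of the group: 10.42, 10.50, 10.04 and 9.50 in line 1 and 9.48, 9.21, 8.57 and 8.81 in line 2, where the lowest line 1 array nearly met the highest of line 2. With line 1 arrays 3 and 4 alone the Slfn4 difference was -0.75. Mipol1 differed by -1.08, and the Sar1B lines differed in it by 1.45. Nsmce1, Kdm8, Gga2, Mt2A and Slc7a11, described with their lists or neighbours, complete the 22.

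Promoter windows were read for these genes to place the numbers on sequence. Each window is the 250 bases upstream of the start site in RefSeq (assembly GRCr8), 5′ to 3′ on the gene's strand. Both strands were searched for TTGCNNAA, a core that C/EBP factors bind, and for the antioxidant response element and the cores of HNF1 and NF-kB. Of 19 called genes higher in line 1 with a window, 6 held a C/EBP match (C3, Gga2, Kdm8, LOC100912031, Lcn2 and Rab30), which is 31.6% beside 8.63% of the 11733 measured genes with a window. The Rab30 and LOC100912031 windows overlap and hold the same match, so those are 1 site. Of 7 called genes higher in line 2 with a window, 1 (Igbp1) held it. An HNF1 match stood in 1 window, that of Igfbp1, beside 0.29% of all, and none held an NF-kB match beside 1.61%. The 4 windows below with a C/EBP match are those of Lcn2 (chr3:36081781-36082030, minus strand), C3 (chr9:2201340-2201589, minus strand), Rab30 (chr1:156215887-156216136, plus strand) and Gga2 (chr1:186016583-186016832, minus strand). They are shown because the genes were called, and capitals mark the match, which ends 184, 97, 97 and 126 bases before the start site in that order.
Lcn2: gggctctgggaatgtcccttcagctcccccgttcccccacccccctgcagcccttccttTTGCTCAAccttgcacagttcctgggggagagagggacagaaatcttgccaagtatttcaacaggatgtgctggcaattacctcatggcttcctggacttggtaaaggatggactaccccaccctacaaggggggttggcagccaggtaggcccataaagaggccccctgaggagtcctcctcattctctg
C3: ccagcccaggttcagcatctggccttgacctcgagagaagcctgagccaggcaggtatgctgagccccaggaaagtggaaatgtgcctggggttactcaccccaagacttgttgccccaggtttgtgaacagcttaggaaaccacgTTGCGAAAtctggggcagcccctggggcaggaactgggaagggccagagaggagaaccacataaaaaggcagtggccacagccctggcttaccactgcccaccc
Rab30: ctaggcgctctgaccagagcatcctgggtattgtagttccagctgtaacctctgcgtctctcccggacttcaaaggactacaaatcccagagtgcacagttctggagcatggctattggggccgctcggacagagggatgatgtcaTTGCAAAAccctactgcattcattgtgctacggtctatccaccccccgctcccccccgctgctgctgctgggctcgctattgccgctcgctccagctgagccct
Gga2: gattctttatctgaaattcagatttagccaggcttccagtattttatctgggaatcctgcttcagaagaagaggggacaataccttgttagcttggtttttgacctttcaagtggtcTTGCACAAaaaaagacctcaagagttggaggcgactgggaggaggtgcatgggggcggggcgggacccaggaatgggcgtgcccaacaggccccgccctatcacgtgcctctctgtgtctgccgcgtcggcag

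C/EBP factors drive many hepatocyte and acute phase genes. Cebpa was higher in line 1, at 9.34, 9.58, 9.60 and 9.48 against 8.57, 8.81, 8.57 and 8.99, a difference of -0.76 ± 0.092 (adjusted p = 6.63e-05). Both clones were below the other lines, which lay between 9.88 and 10.58, and line 1 was the nearer to them. Cebpb differed by -0.28. The motifs were searched after the gene calls were known, and the match counts are a description of these windows. Whether C/EBP factors act on the called genes was not tested.

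Of the called genes higher in line 2, Mttp and Apoc2 act in lipoprotein assembly and metabolism. Mttp encodes the large subunit of the microsomal triglyceride transfer protein, which loads lipid onto nascent apoB. It gave 8.29, 8.54, 8.25 and 8.15 in line 1 and 9.41, 9.60, 9.52 and 9.73 in line 2. The arrays did not overlap, and the difference was 1.26 ± 0.087 (adjusted p = 4.99e-07), 2.39-fold. Both clones were below all 5 other lines (9.78 to 11.20), line 1 by the wider margin. The Sar1B clones, at 11.20 and 11.02, differed less (adjusted p = 9.36e-06 for the difference between pairs). Apoc2, the activator of lipoprotein lipase, was 8.09, 7.89, 7.86 and 7.27 in line 1 and 8.78, 8.88, 8.77 and 8.80 in line 2, a difference of 1.03, with the other lines between 9.05 and 9.65. Leaving out the low line 1 array 4 brought this difference to 0.86, still past the adjusted p but under 2-fold. Apob, the structural protein of the particle, was 10.07 ± 0.14 and 10.75 ± 0.01, a difference of 0.68 (adjusted p = 1.61e-05), against 11.50 to 12.59 elsewhere. A dimmer Apob probe set did not pass (-0.10, adjusted p = 0.302). The Sar1B clones differed in Apob by 0.75, so the gap is no wider here than there.

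Of 19 measured lipoprotein and apolipoprotein genes, 6 were higher in line 2, namely Mttp, Apoc2, Apob, Apoc1 (0.59), Apoc3 (0.31) and Apoh (0.22). Only Tm6sf2, an ER factor in very low density lipoprotein lipidation, was higher in line 1 (-0.28). The median over the list was 0.0396, near that of all genes, since the other 12 members did not pass. Cholesterol synthesis enzymes went the other way or not at all: of 17 genes 4 were higher in line 1, Msmo1 (-0.59) and Fdft1 (-0.52) among them, and 0 in line 2. A dimmer Fdft1 probe set did not pass (-0.13). Fatty acid synthesis split 6 to 1 towards line 1, where Scd (-0.57) and Scd2 (-0.59) stood highest, and a second Scd2 probe set was called at -1.10. In sterol sensing, Insig1 was higher in line 1 (-0.38) and Insig2 in line 2 (0.50). Fatty acid oxidation and ketogenesis split 4 to 6 of 20. Cpt1a, the gate of mitochondrial fatty acid oxidation (-0.64), Eci1 (-0.54) and Acadl (-0.50) were higher in line 1, and Cpt2 (0.34), Etfb (0.33), Hadha (0.32) and Acadm (0.27) in line 2. The 6 became 2 with line 1 arrays 1 and 2 alone. Abhd5, the co-activator of adipose triglyceride lipase, was higher in line 2 (0.56). Of 29 triglyceride and lipid droplet genes, 8 were higher in line 1 and 2 in line 2.

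**Figure D2:**
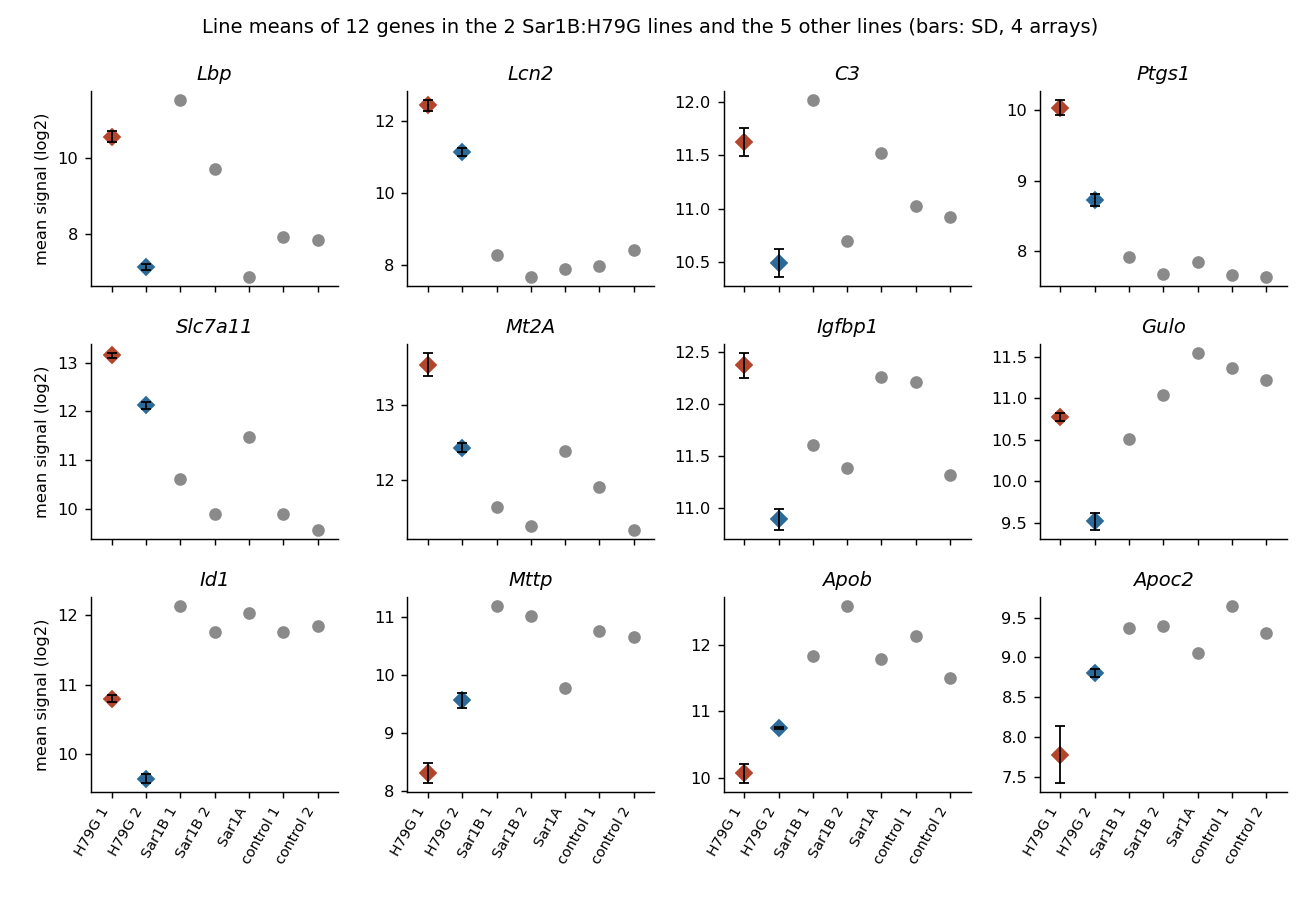
Mean log2 signal of 12 genes in all 7 lines. Diamonds are Sar1B:H79G line 1 and line 2 with SD bars over 4 arrays, circles the other lines, and each panel has its own axis, which does not start at 0. Lcn2, Ptgs1 and Slc7a11 are above the 5 other lines in both clones, Mttp, Apob, Apoc2 and Id1 are below them in both, and Lbp, Igfbp1 and C3 have a clone on either side of the median of the others.

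Among the 22 genes higher in line 1, both clones were on the same side of the median of the other 5 line means for 16 and on opposite sides for 6. Line 1 was the farther clone for 17 of the 22. Among the 8 genes higher in line 2, both clones were on the same side for 3 (Mttp and Apoc2 below, Hcfc2 above) and on opposite sides for 5, with line 1 the farther for 6. Over all 30, line 1 was thus the farther from the other lines in 23. These positions use the same arrays as the calls and carry no test. A clone on 1 side of that median can still lie within the range of the other lines. Examples are line 2 for Nsmce1, Slc17a3 and Rab30, line 1 for Gulo and C3, and both clones for Lbp, Ifi27 and Mipol1. Where both clones lay outside that range on the same side, as for Lcn2 and Mttp, what differs between the clones is the extent. For genes on opposite sides of the median, pooling the Sar1B:H79G arrays would average a clone above it and a clone below it.

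The Sar1 and COPII coat genes were higher in line 2 in 7 of 15 cases and in line 1 in 0, with a median of 0.197. Genes above the median probe set, to which 14 of these 15 belong, were higher in line 2 in 21.2% of cases. All of these differences were small. Sec24d, a cargo-selecting coat subunit, gave 11.33, 11.55, 11.25 and 11.22 in line 1 and 11.72, 11.84, 11.87 and 11.96 in line 2, a difference of 0.51 ± 0.078 (adjusted p = 0.000388). Preb, the exchange factor that loads Sar1 with GTP, differed by 0.38, Tfg by 0.33 and Mia3 (TANGO1, the receptor for bulky cargo) by 0.25. Sec13, of the outer cage, was 12.57 ± 0.05 and 12.77 ± 0.07, a difference of 0.20 (adjusted p = 0.0305) that was lost when any of line 1 arrays 1 or 3 or line 2 arrays 2, 3 or 4 was left out, and with either pair of line 1 arrays alone. Both Sec13 means exceeded the other lines (11.32 to 11.86). Sec31a, its partner, showed the split within line 1: 10.27 and 10.46 on arrays 1 and 2, 10.93 and 11.06 on arrays 3 and 4, and 10.94, 10.95, 10.89 and 11.02 in line 2. Its difference of 0.27 did not pass (adjusted p = 0.209), was 0.59 with line 1 arrays 1 and 2 alone, which passed, and was -0.05 with arrays 3 and 4 alone.

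Rat Sar1b overlapped between the clones (11.24 ± 0.13 and 11.29 ± 0.06; adjusted p = 0.692), and the 5 other line means lay between 11.19 and 11.52. The Sar1B lines, which also carry human Sar1B, gave 11.31 and 11.41, and the control lines 11.52 and 11.39. Whether the human transgene hybridises to this rat probe set was not tested. Sar1a was 12.71, 12.76, 12.78 and 12.73 in line 1 and 12.90, 13.03, 12.98 and 13.14 in line 2, a difference of 0.27 (adjusted p = 0.00706). A second, equally bright Sar1a probe set did not pass (12.73 and 12.85, adjusted p = 0.192). By the former probe set Sar1a was 13.10 in the line carrying human Sar1A, 12.05 and 11.46 in the Sar1B lines and 11.47 and 11.31 in the control lines.

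Downstream of the coat, 8 of 33 ER-Golgi cargo receptor and COPI genes were higher in line 2 and 0 in line 1, a share near the 21.2% of genes above the median probe set, to which 32 of the 33 belong. The count was 5 without line 1 array 1, line 1 array 4 or line 2 array 4. Kdelr3, a retrieval receptor for ER residents, gave 10.21, 10.41, 10.31 and 10.16 against 10.98, 11.12, 11.14 and 11.21. This difference of 0.84 (adjusted p = 3.32e-06) came on top of a level far above the other lines (7.94 to 8.45). Copz2 (0.53) and Tmed5 (0.53) followed. Of 26 ER chaperone and unfolded protein response genes, 11 were higher in line 2 and 4 in line 1 (median 0.141). Pdia4 differed by 0.77, Hsp90b1 (GRP94) by 0.40 and Herpud1 by 0.36, whereas Dnajc3 (-0.51), Ero1a (-0.27), Canx (-0.26) and Xbp1 (-0.22) were higher in line 1. Rab GTPases gave 7 higher in line 2 of 36 and 1 in line 1, a share near the background of 14.9% of all genes and 21.2% of those above the median probe set. Rab33b differed by 0.56. Rab5a (0.52) and Rab2a (0.48) each had a second bright probe set that did not pass, at 0.17 (adjusted p = 0.0855) and 0.10 (adjusted p = 0.356). With line 1 arrays 1 and 2 alone these counts fell to 5 for the coat, 4 for cargo receptors, 7 for chaperones and 2 for Rab genes, and with arrays 3 and 4 alone they were 7, 6, 12 and 10. The coat count was 4 without line 2 array 4.

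The integrated stress response list ran opposite to the chaperones, with 11 of 28 genes higher in line 1 and 1 in line 2 (median -0.127). The 11 became 7 without line 2 array 3. Ddit3 (CHOP), the pro-apoptotic factor of this response, was the exception at 12.07 ± 0.05 and 12.36 ± 0.08, a difference of 0.30 (adjusted p = 0.0028), with the other lines at 8.83 to 9.57. Atf3 was 10.38 ± 0.15 and 10.60 ± 0.17 and did not pass (adjusted p = 0.117), again above all others (7.51 to 8.07). Atf4, the factor whose translation the response favours, was 13.89, 13.84, 14.18 and 14.15 in line 1 and 13.65, 13.74, 13.58 and 13.69 in line 2. Its difference of -0.35 (adjusted p = 0.00651) was no longer past the threshold with line 1 arrays 1 and 2 alone (-0.20). Gdf15, a stress-induced secreted factor, was 9.10, 9.38, 11.08 and 10.04 in line 1 and 9.15, 8.80, 8.74 and 9.13 in line 2, so its difference of -0.95 rested on line 1 arrays 3 and 4. Slc7a11 (below), Ddit4 (-0.40), Slc3a2 (-0.34) and Phgdh (-0.32) were among the rest. Asns (-0.23) no longer passed without line 1 array 1 or 2 or line 2 array 2 or 3.

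Genes that respond to NRF2, the transcription factor for oxidant and electrophile defence, and those of glutathione metabolism form the next list. Of 33 measured, 20 were higher in line 1 and 0 in line 2, with a median of -0.301, and 28 had a negative difference. The background higher in line 1 was 7.77% of all genes and 10.7% of those above the median probe set, to which 29 of the 33 belong. Slc7a11, the cystine importer that feeds glutathione synthesis, gave 13.12, 13.10, 13.15 and 13.21 in line 1 and 12.07, 12.20, 12.06 and 12.18 in line 2. That difference of -1.02 ± 0.059 (adjusted p = 1.38e-07) lay on a level above the other lines (9.58 to 11.48) in both clones. Mt2A, a metallothionein that binds zinc and copper, gave 13.38, 13.44, 13.67 and 13.69 against 12.43, 12.41, 12.52 and 12.38, a difference of -1.11. Ephx1, microsomal epoxide hydrolase, was 13.48 ± 0.09 and 12.66 ± 0.07, a difference of -0.82, and here line 1 was within the range of the other lines (13.13 to 13.70) and line 2 was below them. Gsr, which regenerates reduced glutathione, was 11.51, 11.54, 11.99 and 11.96 in line 1 and 10.80, 11.01, 10.90 and 11.06 in line 2, a difference of -0.81.

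The further members higher in line 1 had varied roles, and 13 of the 33, Mt1 among them, did not pass. Of the exporters of conjugates, Abcc2 differed by -0.63, Abcc4 by -0.61 and Abcc3 by -0.57. Gclc and Gclm, subunits of the rate-limiting enzyme of glutathione synthesis, differed by -0.47 and -0.29. Gpx2 differed by -0.61, but the Sar1B clones differed in it by -1.29. The pentose phosphate enzymes Pgd (-0.54), Taldo1 (-0.46) and Tkt (-0.46), which supply NADPH, were higher in line 1 together, as were Srxn1 (-0.53), Nqo1 (-0.30), Txnrd1 (-0.29) and Hmox1 (-0.26). With line 1 arrays 1 and 2 alone 16 members were higher in line 1, with arrays 3 and 4 alone 21, and over the other alternatives at least 16. Of the 33 members, 6 differed more between the Sar1B:H79G lines than between the Sar1B lines, beside 3.55% of all genes.

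The antioxidant response element, at which NRF2 binds, has the core TGACNNNGC. It stood in the 250-base window of 6 of 17 list members higher in line 1 (Ephx1, Gclm, Gpx2, Mt2A, Sod2 and Txnrd1), or 35.3%, in 1 of 11 members that were not called, and in 1526 of all 11733 measured genes with a window. Among the 19 called genes higher in line 1 it stood in 4 windows (21.1%). The list was made of genes that respond to NRF2 and glutathione genes, so its share of matches does not measure the difference between clones. This search also followed the calls, and whether NRF2 acts on these genes was not tested. The 4 windows below are those of Mt2A (chr19:10838709-10838958, minus strand), Gpx2 (chr6:101230034-101230283, minus strand), Sod2 (chr1:50050169-50050418, minus strand) and Gclm (chr2:213031885-213032134, plus strand), and the capitals mark the match on either strand, ending 229, 5, 27 and 164 bases before the start site.
Mt2A: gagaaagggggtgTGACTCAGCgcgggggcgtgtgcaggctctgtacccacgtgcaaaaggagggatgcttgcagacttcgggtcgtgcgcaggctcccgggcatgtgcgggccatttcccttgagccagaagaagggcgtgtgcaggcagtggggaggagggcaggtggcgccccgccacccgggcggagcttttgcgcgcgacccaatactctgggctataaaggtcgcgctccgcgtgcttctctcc
Gpx2: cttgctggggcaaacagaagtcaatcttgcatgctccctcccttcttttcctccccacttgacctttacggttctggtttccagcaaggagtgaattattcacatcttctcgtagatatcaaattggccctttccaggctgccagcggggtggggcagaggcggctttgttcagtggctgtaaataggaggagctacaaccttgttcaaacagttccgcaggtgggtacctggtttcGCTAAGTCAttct
Sod2: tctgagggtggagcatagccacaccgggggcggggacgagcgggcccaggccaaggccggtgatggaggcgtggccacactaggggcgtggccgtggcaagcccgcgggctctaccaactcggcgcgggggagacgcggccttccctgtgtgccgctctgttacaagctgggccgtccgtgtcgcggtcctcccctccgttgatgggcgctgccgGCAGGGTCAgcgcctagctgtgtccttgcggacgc
Gclm: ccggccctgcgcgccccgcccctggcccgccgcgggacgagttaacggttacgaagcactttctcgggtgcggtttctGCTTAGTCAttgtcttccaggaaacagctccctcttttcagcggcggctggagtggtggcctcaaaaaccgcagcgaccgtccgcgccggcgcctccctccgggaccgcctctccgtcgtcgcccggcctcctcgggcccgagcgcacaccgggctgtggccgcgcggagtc

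**Figure D3:**
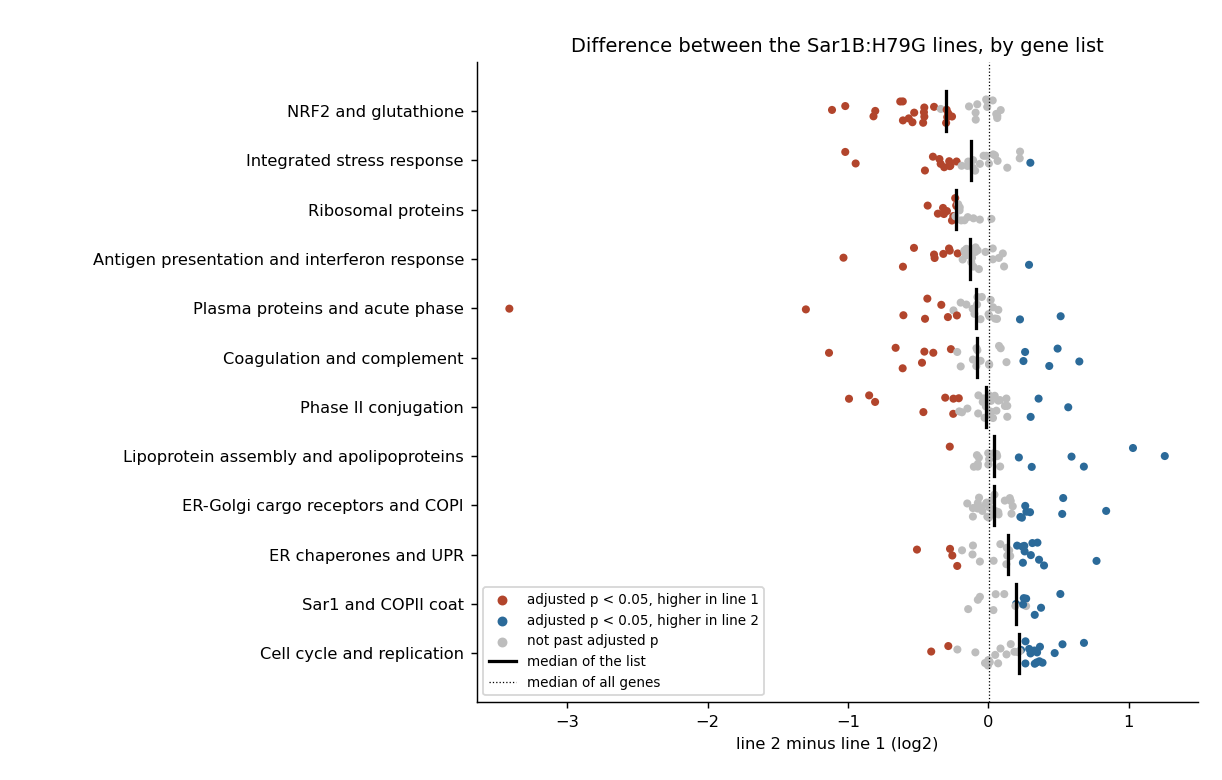
Difference between the Sar1B:H79G lines (line 2 minus line 1, log2) for each measured member of 12 gene lists. Points are genes, coloured where the adjusted p is below 0.05, thick bars are list medians and the dotted line is the median of all genes. The NRF2 and glutathione list has 20 coloured members, all higher in line 1, and the cell cycle list 15 higher in line 2 and 2 in line 1.

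Proliferation genes leaned towards line 2. Of 32 cell cycle and replication genes, 15 were higher in line 2 and 2 in line 1, with a median of 0.217, and 0 reached 2-fold. The background higher in line 2 was 21.2% of genes above the median probe set, to which 30 of the 32 belong. Mki67, the proliferation antigen, was 9.65, 9.88, 9.62 and 9.50 in line 1 and 10.25, 10.39, 10.27 and 10.45 in line 2, a difference of 0.68 ± 0.080 (adjusted p = 5.27e-05). Ccnd3 (0.53), the checkpoint kinases Bub1b (0.47) and Bub1 (0.36), the cyclins Ccnb2 (0.35) and Ccnb1 (0.33) and the replicative helicase subunit Mcm7 (0.37) went with it. Myc (-0.41) and Plk1 (-0.29) went against it. Line 2 stood between the others for Mki67 (9.64 to 10.63), whereas line 1 was near their lower end. The count higher in line 2 fell to 8 with line 1 arrays 1 and 2 alone and was 17 with arrays 3 and 4 alone.

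Ribosomal protein genes were higher in line 1 in 10 of 20 cases and in line 2 in 0, with a median of -0.228. Rps24 (-0.43), Rpl35 (-0.36) and Rpl3 (-0.32) led. For Rps24 the line 1 arrays gave 14.26, 14.21, 14.44 and 14.49, and the line 2 arrays 13.91, 13.94, 13.89 and 13.92. This list rested on the arrays with the lower β-actin 5′ signal: it had 4 members higher in line 1 without line 1 array 3, line 1 array 4 or line 2 array 3, 18 with line 1 arrays 3 and 4 alone, 1 with arrays 1 and 2 alone, and 1 after quantile normalization of all 8 arrays. The part of RNA quality in these counts was not tested.

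In drug metabolism, the UDP-glucuronosyltransferases differed in both directions: Ugt2b7 (-0.99), Ugt2b1 (-0.85) and Ugt2b15 (-0.81) were higher in line 1 and Ugt2b (0.99) in line 2. Ugt2b7 gave 12.19, 12.17, 12.24 and 12.13 against 11.10, 11.07, 11.29 and 11.30, just short of 2-fold. Genes of this family are near-identical, and their probe sets may share signal. Gsta3 (0.57) was higher in line 2. The phase II list as a whole split 8 to 3 of 33, with 5 higher in line 1 from line 1 arrays 1 and 2 alone and 9 from arrays 3 and 4 alone, and cytochrome P450 genes passed in only 4 of 36, with Cyp1a1 (-0.84) the widest. Amino acid breakdown and gluconeogenesis gave 7 higher in line 1 and 2 in line 2 of 39. Ass1, an enzyme of the urea cycle, was 9.39 ± 0.03 and 8.44 ± 0.08, a difference of -0.95, against 7.21 to 7.48 in every other line. Tat (-0.72) and Pck2 (-0.67) were in the same direction. Of 15 glucocorticoid and cyclic AMP response genes, Fkbp5 (-0.70) and Cited2 (-0.50) joined Igfbp1 in line 1, and Sgk1 (0.66) and Crem (0.40) were higher in line 2.

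Of 29 antigen presentation and interferon response genes, 9 were higher in line 1 and 1 in line 2 (median -0.134). After Ifi27 came Psmb9 (-0.61), an immunoproteasome subunit that at 8.27 and 7.67 lay near the median probe set, and Ifit2 (-0.53). Adhesion and extracellular matrix genes gave 16 higher in line 1 and 2 in line 2 of 64, led by Spp1 (-0.84) and Cdh17 (-0.60). The wild-type Sar1B lines differed more in Spp1, by -2.77. Growth factors and their binding proteins gave 10 and 0 of 48, solute carriers 9 and 0 of 45, and the keratin Krt18 (-0.57) was higher in line 1. Krt8 differed by -0.34 (adjusted p = 0.0116), and by -0.18 with line 1 arrays 1 and 2 alone and -0.10 after quantile normalization, neither of which passed. For the adhesion and matrix list the count higher in line 1 was 11 with line 1 arrays 1 and 2 alone and 18 with arrays 3 and 4 alone. Of 24 neuronal genes 0 passed, and of 18 imprinted genes 1 passed in each direction, but only 7 and 8 members of these lists lay above the median probe set. The lysosome list split 5 to 6 of 20. Gadd45a, a growth arrest gene of the p53 list, was 12.32 ± 0.09 and 11.63 ± 0.04, and both were above the other lines (9.32 to 10.49). Among genes set out for their place in liver, Aqp9 differed by -0.40 (adjusted p = 0.000664) and Fmo1 did not pass (-0.02, adjusted p = 0.875).

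To see whether neighbouring genes were displaced together, genes were put in the order of the RefSeq annotation (assembly GRCr8), and the running median over 25 measured neighbours was taken. Of 13659 windows, 10 reached 0.25 in size with 80% of genes of that sign for the Sar1B:H79G pair, beside 164 for the Sar1B pair and 18 for the control pair. The 10 merged into 2 stretches. The rule does not register smaller shifts over whole chromosomes, which were not tested. On chromosome 15, 98 of 401 genes were higher in line 1 and 9 in line 2 (median -0.0673). On chromosome 16 these were 88 and 12 of 412 (median -0.0708), beside 1104 and 2121 of all 14217 genes. Chromosome 18 leaned the other way, with 10 and 71 of 328 (median 0.0409), as did chromosome 6 with 30 and 133 of 603 (median 0.0422). The X chromosome, which holds 1 of the 2 stretches, had the largest median of any chromosome (0.0524), with 10 and 95 of 445. The stretch on chromosome 1 ran over 32 measured genes from RGD1559600 to Rbbp6, with 25 negative, 18 higher in line 1, 2 higher in line 2, and a median of -0.255. In the Sar1B and control pairs the same genes had medians of -0.021 and 0.0114. It holds Gga2, an adaptor that sorts cargo at the trans-Golgi network, which was called: 10.93, 11.04, 10.77 and 10.80 in line 1 and 9.75, 9.72, 9.73 and 9.76 in line 2, with the other lines at 10.47 to 10.63. It also holds Ndufab1 (-0.73), Ubfd1 (-0.63), Cog7 (-0.62) and Mettl9 (-0.61), Golgi and mitochondrial proteins among them. The called genes Kdm8 (-1.03), a JmjC-domain hydroxylase, and Nsmce1 (-1.06), a subunit of the SMC5/6 complex, are adjacent to each other just past its end, at measured genes 38 and 39 from its start. Line 1 held Nsmce1 at 11.46, 11.63, 11.64 and 11.64 where line 2 (10.46, 10.52, 10.53 and 10.64) lay near the other lines (10.41 to 10.56).

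The stretch on the X chromosome ran over 27 measured genes from Samt3 to Arr3, with 13 higher in line 2, 0 higher in line 1 and a median of 0.164. In the Sar1B and control pairs the same genes had medians of -0.00576 and 0.054. Of the 8 called genes higher in line 2, 3 lie in it, and their differences are among those that selected it. Spin4, a spindlin family protein, gave 7.46, 7.68, 7.55 and 7.23 in line 1 and 8.84, 8.81, 8.99 and 9.03 in line 2 (1.44). Pja1, a ubiquitin ligase, gave 9.65, 9.78, 9.50 and 9.31 against 10.64, 10.74, 10.87 and 10.90 (1.23). Igbp1, a regulator of protein phosphatase 2A, gave 8.84, 9.07, 8.90 and 8.73 against 9.96, 9.99, 10.11 and 10.15 (1.17). For Pja1 the 5 other lines (10.28 to 10.44) lay between the clones, as they did for Igbp1 (9.28 to 9.84) and Spin4 (7.68 to 8.72). Between the control lines Igbp1 differed by 0.33, Spin4 by 0.25 and Pja1 by 0.12, none past the adjusted p. Maged1 (0.82), Zxda (0.57) and Las1l (0.56) lie in the same stretch. In the 30 measured genes flanking this stretch 2 were higher in line 1 and 8 in line 2, and in the 30 flanking the other 3 and 4. Gk, the measured gene directly before the X stretch, was higher in line 1 (-0.70). Both stretches were found from these same differences, so the counts within them are not independent of that choice. Copy number was not measured.

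**Figure D4:**
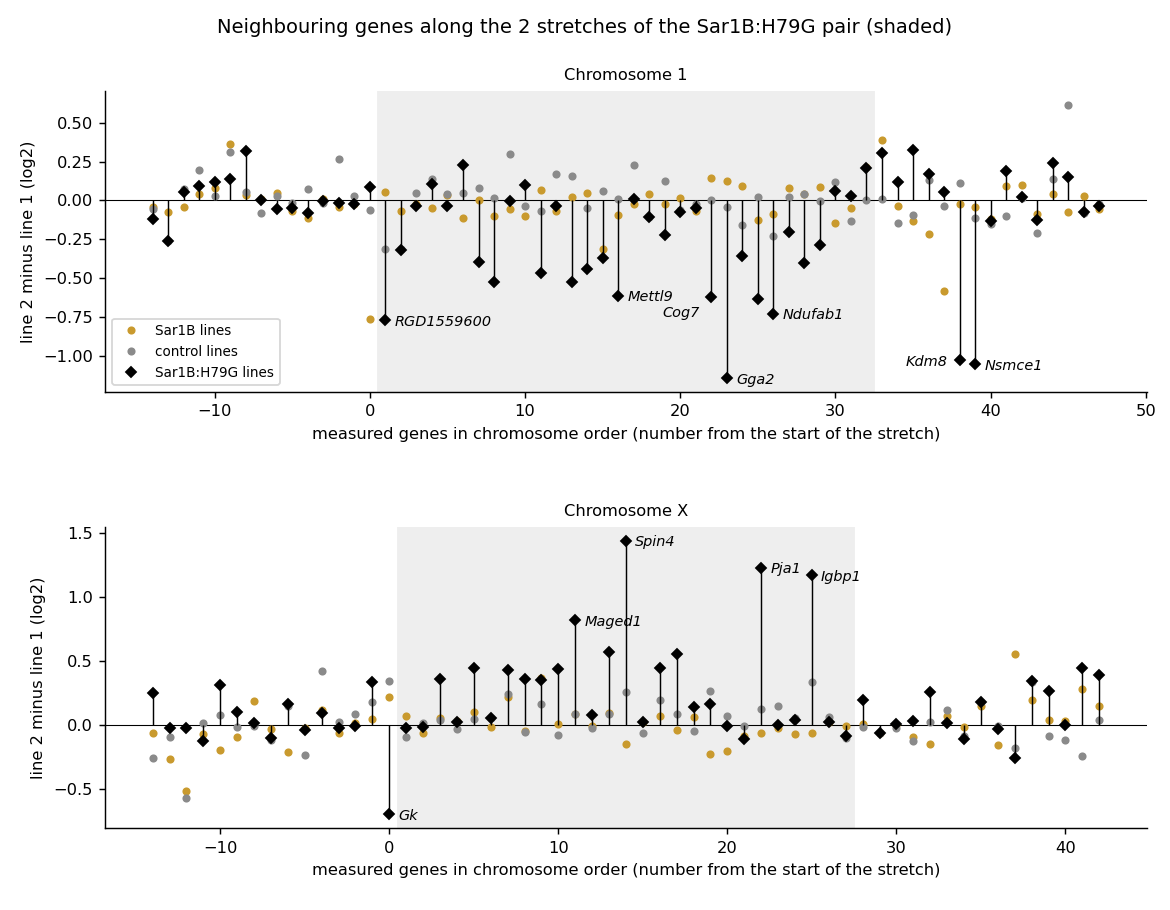
Difference between line 2 and line 1 (log2) for measured genes in chromosome order along the stretches on chromosomes 1 and X, shaded, with 15 genes on either side. Black diamonds are the Sar1B:H79G lines and coloured circles the Sar1B and control pairs. Medians of these 2 pairs over the stretch were -0.021 and 0.0114 on chromosome 1 and -0.00576 and 0.054 on X. Kdm8 and Nsmce1 stand just past the shaded part on chromosome 1.

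The remaining genes higher in line 2 have no common role. Hcfc2, a host cell factor family member, gave 9.02, 9.16, 8.97 and 8.77 in line 1 and 10.19, 10.20, 10.14 and 10.33 in line 2, and both clones were above the other lines (8.08 to 8.64). Pnn (pinin), a nuclear protein of RNA splicing, differed by 1.15 (9.60 ± 0.26 and 10.75 ± 0.16), and all 4 of its probe sets were higher in line 2. The Sar1B clones differed in Pnn by 0.76, and the excess did not pass its test (adjusted p = 0.153). Ikbip sat at the threshold (1.01), and its second probe set did not pass (-0.03). The 3 called genes nearest the 2-fold limit were Ikbip, Slc7a11 (-1.02) and Kdm8 (-1.03), and the nearest outside it were Ugt2b7, Ugt2b and Slc44a4, each at 0.99 in size, with Ugt2b higher in line 2. Of the 43 called probe sets 6 carried no gene symbol in the array annotation and are not named.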

How the data were processed

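Total RNA of each line was hybridised to Affymetrix rat expression arrays. Per the methods and labels, the authors loess-normalized the raw intensities and summarised them with MAS5 (version not given in the sources used here), and they deposited 1 value per probe set and array. The log2 scale was inferred from the deposited values (1.643 to 15.41), whose base is not stated. No detection calls or background values were used, so a low value bounds nothing, and the number of arrays limits the precision.

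From the 31099 probe sets, 57 array controls were left out. Symbols came from the platform annotation: 20826 probe sets have 1 symbol, 436 several and 9780 none, and of 20758 checked by gene ID against RefSeq 0 changed. Genes (14217) were taken at their brightest probe set by the mean over 25 arrays. Line 2 was compared with line 1 by limma 3.58.1 in R 4.3.3 (lmFit, eBayes; 6 residual and 8.381 prior degrees of freedom), with Benjamini-Hochberg adjustment over 31042 probe sets, a threshold of 0.05 and a minimum fold of 2. The test against the Sar1B pair took the larger of 2 one-sided p-values, since line numbers pair nothing. The fits were tested on simulated data. SAM, the authors' test, was not used.

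The members and the 34 gene lists were chosen with earlier results of these data known. Named genes are up to 15 of the largest called differences in each direction with no overlap between arrays and the brighter line mean above the median probe set, the 3 largest of each list, and Sar1a, Sar1b, Apob, Mttp, Sec13, Sec31a, Lcn2, Ddit3, Atf3, Aqp9 and Fmo1. The other called genes, further list members, those along the stretches and the promoters shown were chosen after their values were seen. Alternatives were other samples in the fit, normalizations, filters, moderation, folds, probe set rules and arrays left out; the use of line 1 arrays 1 and 2 or 3 and 4 alone was added after seeing the data.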

Additional observations from a re-analysis of the deposited data

Results flagged for a closer look

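In 230 groups of 4 arrays, 115 genes in each Sar1B:H79G line, 11 arrays stood apart from the other 3 by more than Dixon's critical value, beside a chance rate of about 1 in 20 groups. In line 1 the array low for its group was array 4 for Slc17a3 (10.46) and array 1 for Nsmce1 (11.46) and Sec13 (12.49). The array high for its group in line 1 was array 2 for Mipol1 (10.53) and Apob (10.28). In line 2 array 4 was high for Gulo (9.67), Ikbip (10.08), Apob (10.77), Apoc1 (8.604) and Bub1b (10.72), and array 3 was low for Gadd45a (11.57). Apob was the gene with such an array in both lines, and in line 2 its remaining 3 arrays read 10.74 each.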

How the results depend on the processing

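Of the 30 called genes, 17 passed both rules in all 18 settings examined, the main one included and the test against a fold of 1.5 left aside. Losses were mostly of genes close to 2-fold (Slfn4 and Ikbip in 5 settings each, Slc7a11 in 4, Kdm8 in 3), and the mean of all probe sets left 24 genes, without Ptgs1, Rab30, Slfn4, Clu, Pnn and Ikbip. With no minimum fold 5419 probe sets and 3225 genes passed. The called probe sets numbered 51 after quantile normalization, of which 41 were shared, and 42 to 55 with 1 array left out. Those higher in line 2 were 10, and 8 to 17 with 1 array left out (17 without line 2 replicate 1), 6 with line 1 arrays 1 and 2 alone and 19 with arrays 3 and 4 alone. With arrays 1 and 2 alone 3468 probe sets and 2097 genes passed the adjusted p, in a fit with fewer arrays. Of probe sets past the adjusted p, 60.6% were higher in line 2, against 50.8% with line 1 arrays 1 and 2 alone, 65.9% after a median shift and 56% after quantile normalization. Reversed values were all of genes that did not pass with all 8 arrays: Sar1b, line 2 minus line 1, at -0.00974 (quantile), -0.000192 to 0.0937 with 1 array left out (lowest without line 1 replicate 4) and -0.0499 (arrays 1 and 2), Fmo1 at -0.0559 to 0.0374 with 1 array left out (highest without line 1 replicate 2) and 0.0444 (arrays 3 and 4), and Sec31a at -0.0498 (arrays 3 and 4). The cause was not tested. The counts for the Sar1B pair (67 to 80), the control pair (15 to 16) and the excess over the Sar1B pair (32 to 43) stayed within 1.5 times. No paired analysis was possible because array numbers do not pair arrays across lines.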
